A study of Mus musculus with 24 samples.

Results

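The 72 probes described here were brighter in the epithelium than in the mesenchyme of the Müllerian ducts of wild-type mouse embryos, and they were followed into embryos labelled as lacking Wnt7a. They came from a panel of 20175 probes read on the GeoMx platform, in which barcodes are released from probes hybridised to a tissue section by ultraviolet light and then sequenced. Embryos were female, wild-type or Wnt7a-null, and were taken at embryonic stage E13.5, before the ducts fuse, or at E14.5, when the ducts meet at the midline and the basement membrane starts to break down. Each of the 12 embryos, 3 per genotype and stage, gave a library from the duct epithelium (MDE) and a library from the neighbouring mesenchyme (MDM), so that the 24 libraries formed 8 groups of 3. Both regions were matched to an embryo by the genotype, stage and number in the titles. Regions were picked on laminin immunofluorescence at the site where the ducts join, and all sections lay on a single slide. The sources used here name the mutant embryos as null without giving the allele or the strain.

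The probes were chosen by their counts in the wild-type libraries. The level of a probe is its counts per 1000000 counts of the library (CPM), and its region difference in an embryo is the log2 ratio of MDE to MDM, each as CPM plus 20. A probe was kept when its region difference averaged at least 0.7 over the 6 wild-type embryos, was above 0 in each of them, and its wild-type MDE level averaged at least 60 CPM. The level alone was met by 3041 probes, of which 415 were above 0 in every wild-type embryo and 72 also reached the mean of 0.7. Wild-type values are therefore given below as a description and without a test, and tests are confined to null embryos or to probes chosen on the other stage.

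The Müllerian ducts are paired epithelial tubes that give rise to the oviducts, the uterus and the upper vagina. The epithelium rests on a laminin-rich basement membrane and is wrapped in mesenchyme, and signals pass between these layers while the tract is patterned. Wnt7a is a secreted Wnt ligand made by the duct epithelium, and female mice without it have a misshapen reproductive tract. Probe identifiers were not paired with gene names here (0 matched the gene table used), so the label of the probes could not be checked against known epithelial markers, and the probes are called by identifier. The loss of Wnt7a could not be checked in the counts either, so the genotype rests on the labels.

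Depth differed between regions. MDE libraries held 139017 to 2618342 counts and MDM libraries 1039606 to 12379529, and the 72 probes had a median of 17 to 202.5 counts in the former and of 43.5 to 618.5 in the latter. One library was unlike the rest, the MDE of null E14.5 replicate 2, whose 2618342 counts came from 24.1 aligned reads each, against 2.07 to 2.38 in the other 11 MDE libraries. Its reads per count lay in the range of the 12 MDM libraries, 21.1 to 26.8, a measure that separated the regions in all other libraries. Its deviations from the group mean correlated with those of its own embryo's MDM at 0.626, the highest of the 12 embryos. The signal contrast of a library, here the percentage of its signal carried by the brightest 5% of the panel (1009 probes), was lower at E14.5 in null than in wild-type embryos, 17.5% ± 1.78 (SD, n = 3) against 27.6% ± 1.20 in MDE and 16.1% ± 2.27 against 25.7% ± 0.769 in MDM. At E13.5 MDE had 22.8% ± 4.38 in the null and 22.9% ± 3.93 in the wild-type embryos. The mean level of the 5044 dimmest probes, taken as background, moved the opposite way, with 31.3 CPM ± 1.24 for the null and 23.7 CPM ± 1.15 for the wild-type epithelium at E14.5. In captured regions like these, fewer cells of a type and less RNA per cell cannot be told apart.

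In the wild-type embryos the 72 probes spanned a wide range of levels. Their mean MDE level ran from 69.2 to 554.7 CPM with a median of 123.8 CPM, and their mean MDM level from 25.1 to 220.7 CPM with a median of 44.7 CPM. RTS0066019 and RTS0074039 were the brightest, at 554.7 and 375.4 CPM in MDE and 218.1 and 220.7 CPM in MDM. RTS0073516 and RTS0068983 had the largest mean region differences, 1.73 ± 0.32 and 1.63 ± 0.55 (log2, SD, n = 6 embryos). The 2 brightest probes were thus not the 2 with the largest ratio between the layers, though RTS0068983 was also bright, at 345.0 CPM in MDE. RTS0075756 and RTS0079250 lay just inside the threshold, with mean differences of 0.702 and 0.7057, and RTS0069290 and RTS0078381 just outside it, with 0.6968 and 0.6997. A mean difference of at least 1.0 was reached by 34 of the 72.

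Summed over the 72 probes, the signal in the epithelium was lowest in null embryos at E14.5. The brightest 5% of the panel also held less of the E14.5 MDE signal, 17.5% ± 1.78 in null against 27.6% ± 1.20 in wild-type embryos. Wild-type values chose the 72 probes, so the levels that follow are descriptions. In MDE the 72 probes held 0.675%, 0.646% and 0.603% of all counts in the 3 null E14.5 embryos, against 1.37%, 1.10% and 1.17% in wild-type E14.5. The ranges of these groups did not overlap. At E13.5 they held 1.13%, 0.957% and 0.779% in null and 0.904%, 1.04% and 1.16% in wild-type MDE, and these ranges overlapped. In MDM the probes held 0.379%, 0.390% and 0.377% in null E14.5, 0.475%, 0.469% and 0.470% in wild-type E14.5, 0.447%, 0.507% and 0.431% in null E13.5 and 0.414%, 0.426% and 0.468% in wild-type E13.5. The null E14.5 embryos were lowest there too, by a smaller margin. With background taken off each probe, the summed MDE level was 4160 CPM ± 424 in null embryos against 10432 CPM ± 1431 in wild-type ones at E14.5, and 7685 CPM ± 1973 and 8495 CPM ± 1464 at E13.5. The number of probes with a group mean of at least 2 times background in MDE was 72 in wild-type at either stage, 70 in null E13.5 and 54 in null E14.5. The least wild-type MDE level set by the rule lay above that cut, so the wild-type counts were nearly fixed. The cut also differed between groups. Mean MDE background was 31.3 CPM in null E14.5, 25.7 CPM in null E13.5, 23.7 CPM in wild-type E14.5 and 25.5 CPM in wild-type E13.5. No such count is given for other probes, so these counts are descriptions only.

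**Figure D1:**
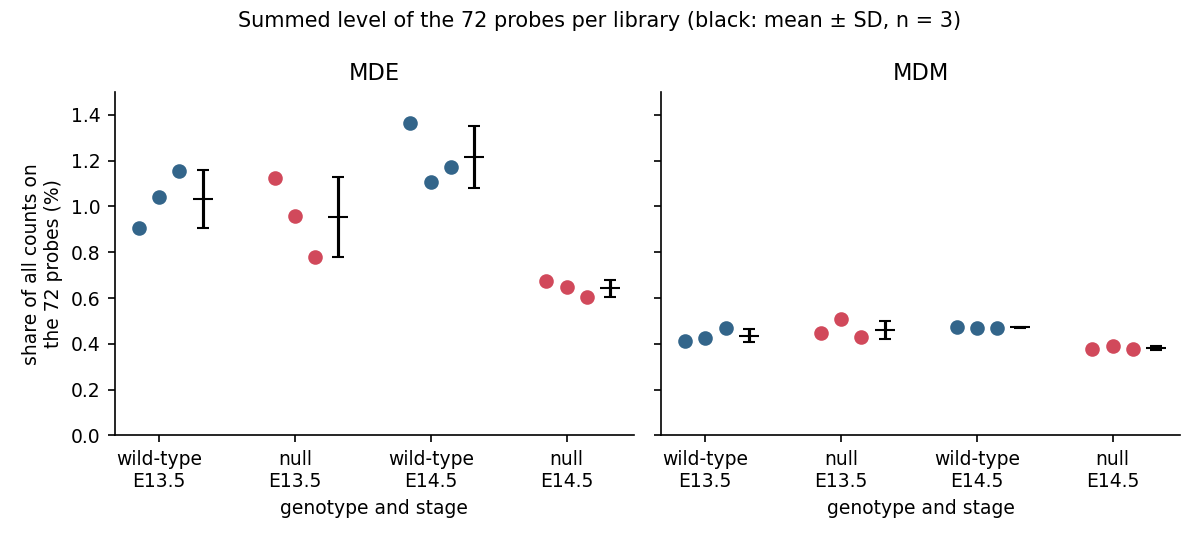
Percentage of each library's counts taken by the 72 probes, for MDE (left) and MDM (right), by genotype and stage; coloured points are libraries and the black mark is the mean ± SD of 3. The 3 null E14.5 MDE libraries sit at 0.603% to 0.675%, below all other MDE libraries, while all MDM libraries lie between 0.377% and 0.507%.

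The epithelium still exceeded the mesenchyme for most of these probes in embryos labelled Wnt7a-null. The region difference was above 0 in all 6 null embryos for 54 of the 72 probes, in 5 embryos for 13 and in 4 embryos for 5. Over the whole panel 592 of 20175 probes (2.93%) were above 0 in all 6 null embryos. The median region difference over the 72 probes was 1.04, 0.633 and 0.620 in the null E13.5 embryos and 0.530, 0.485 and 0.497 in the null E14.5 embryos. The wild-type embryos, on whose values the probes were chosen, had medians of 0.779, 0.981 and 1.11 at E13.5 and 1.17, 0.955 and 1.105 at E14.5. All 3 null E14.5 embryos and null E13.5 replicates 2 and 3 were thus below every wild-type embryo, whereas null E13.5 replicate 1 lay among the wild-type embryos. Among 2969 other probes that met the same MDE level, the medians of the same embryos stayed between 0.0187 and 0.115.

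**Figure D2:**
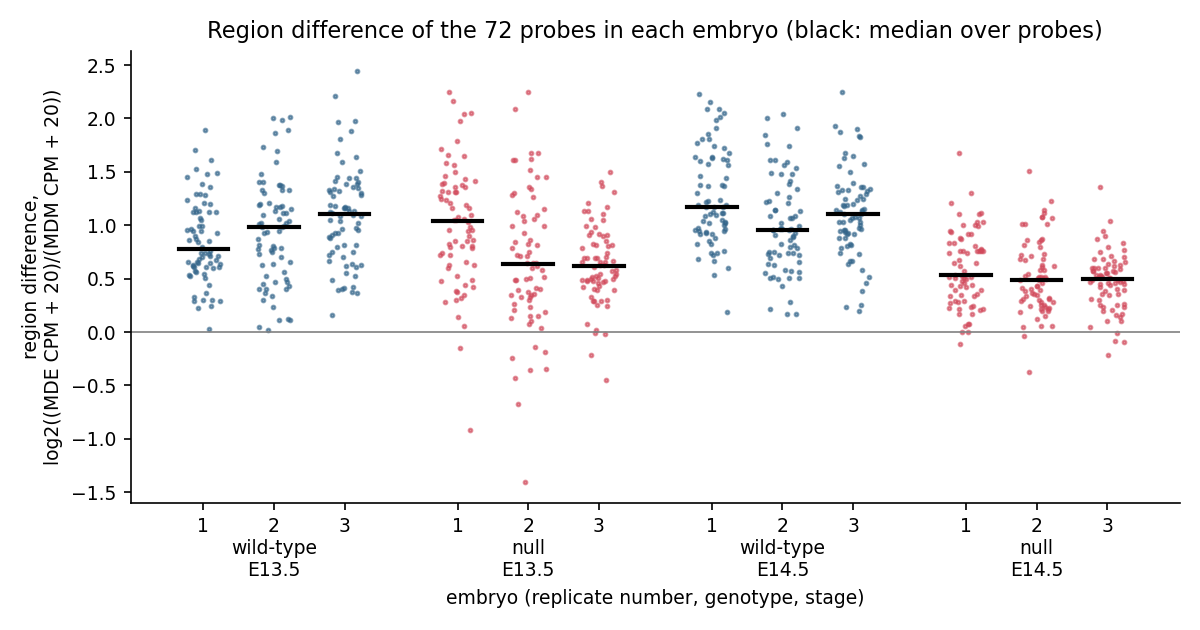
Region difference, log2((MDE CPM + 20)/(MDM CPM + 20)), of each of the 72 probes in each of the 12 embryos; points are probes and black bars the median over probes. The medians of the null E14.5 embryos lie at 0.485 to 0.530, and single probes fall below 0 in null embryos, down to -1.41 in null E13.5 replicate 2.

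Null embryos alone, whose counts do not enter the rule, gave a test of the region difference at each stage. The rule itself was set with earlier results of these data known. At E13.5, 50 of the 72 probes were higher in MDE than in MDM and none was lower, by edgeR's quasi-likelihood test with the embryo as a block and Benjamini-Hochberg adjustment over all probes (threshold 0.05). In the same fit 157 of all 20175 probes (0.778%) were higher in MDE, and 76 of the 2969 other bright probes. At E14.5, 57 of the 72 were higher and none was lower, against 298 of all probes (1.48%) and 216 of the other bright probes. The median fitted log2 difference of the list was 1.00 at E13.5 and 0.69 at E14.5, against -0.001 and -0.005 over all probes. Of the 72 probes, 41 were called at both stages, 9 at E13.5 only and 16 at E14.5 only, and 6 at neither. The share of all probes called at both stages was not computed. All 3 embryos were above 0 for 47 of the 50 and 54 of the 57 called probes.

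At E14.5 the count was 28 without null E14.5 replicate 2, 29 by DESeq2, 8 by limma on log2(CPM + 20), 4 after thinning to equal totals, and 0 with signal contrast as a covariate or by limma on background-subtracted values. The median over the list stayed between 0.526 and 1.35 in these fits. At E13.5 the count was 31 without null E13.5 replicate 1, 33 with the covariate, 31 without the embryo block, 26 after thinning and 18 by limma on background-subtracted values.

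RTS0068983 and RTS0073516 had the lowest p at E13.5 among the 72. RTS0068983 stood at 525.1, 318.5 and 306.7 CPM in null E13.5 MDE and at 137.8, 113.9 and 103.7 CPM in MDM. Every MDE library was far above every MDM library, and the fitted log2 difference was 1.69 (SE 0.138, edgeR adjusted p = 2.8e-21). RTS0073516 stood at 143.9, 225.1 and 150.6 CPM in MDE and 31.8, 31.7 and 40.4 CPM in MDM, a log2 difference of 2.29 (SE 0.193, edgeR adjusted p = 1.65e-20). Its mesenchymal level was close to the background of these libraries, 27.8 CPM ± 2.57.

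At E14.5 the lowest p among the 72 belonged to RTS0068891 and RTS0066019. RTS0068891 stood at 199.6, 150.5 and 232.5 CPM in null E14.5 MDE and 100.3, 52.7 and 78.7 CPM in MDM, a log2 difference of 1.44 (SE 0.117, edgeR adjusted p = 1.88e-21). The MDE libraries again lay above all MDM libraries. RTS0066019 stood at 219.2, 327.3 and 197.0 CPM in MDE and 106.8, 101.9 and 92.8 CPM in MDM, a log2 difference of 1.38 (SE 0.1215, edgeR adjusted p = 5.16e-19). In both layers it was dimmer than at E13.5, where MDE held 568.3, 593.1 and 372.4 CPM and MDM 217.2, 273.5 and 168.6 CPM, and its mean region difference was 1.14 ± 0.14 at E13.5 and 1.12 ± 0.34 at E14.5 (SD, n = 3). Neither of these E14.5 calls passed with signal contrast as a covariate, where the log2 differences were 1.01 and 0.93.

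Within null embryos the mean region difference was smaller at the later stage for most of the 72 probes. It was smaller at E14.5 than at E13.5 for 54 of the 72 probes (median change over the list -0.23), whereas in wild-type embryos it was larger at E14.5 for 52 of them, with a median change of 0.181. The direct test of region by stage in null embryos called 6 of the 72 probes smaller at E14.5 and 1 larger, against 8 of all 20175 probes in each direction (0.0397% smaller and 0.0397% larger). The list's median fitted change was -0.30. The count of 6 was 1 without null E14.5 replicate 2, 3 without null E14.5 replicate 3, and 0 by DESeq2, by both limma fits or after thinning. The list's median stayed between -0.455 and -0.151 in every one of the fits tried on these 72 probes.

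RTS0073516 had the lowest p among the probes whose region difference became smaller. Its region difference was 1.66, 2.24 and 1.497 in the null E13.5 embryos and 1.10, 0.363 and 0.466 in the null E14.5 embryos, a fitted change of -1.60 (SE 0.215, edgeR adjusted p = 6.68e-08). In MDE it went from 173.2 CPM ± 45.1 to 79.7 CPM ± 24.6 (SD, n = 3), and in MDM from 34.7 CPM ± 4.995 to 42.7 CPM ± 2.71. In wild-type embryos its mean difference was 1.70 at E13.5 and 1.75 at E14.5. RTS0081477 changed by -1.60 in the fit (SE 0.257, edgeR adjusted p = 7.77e-05), but its E13.5 values of 2.16, 0.205 and 1.36 were scattered, and its MDE level in null E13.5 replicate 2 was 32.9 CPM. Without null E14.5 replicate 2 this change did not pass.

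RTS0068891 was the one probe called in the other direction. Its region difference was -0.151, 0.499 and -0.211 in the null E13.5 embryos and 0.868, 1.23 and 1.36 in the null E14.5 embryos, a fitted change of 1.30 (SE 0.210, edgeR adjusted p = 3.44e-05). The later embryos were all above the earlier ones, but DESeq2 and limma did not call it either. In wild-type embryos it was 0.509, 0.115 and 1.41 at E13.5 and 1.77, 1.57 and 1.18 at E14.5, so that its mean was higher at E14.5 in either genotype. Across the 72 probes the stage change of the mean difference in wild-type and in null embryos had a Pearson r of 0.52 (Spearman rho 0.49), as a description over probes that share libraries and were chosen on the wild-type values. The mean difference at E14.5 was the smaller one in both genotypes for 19 of the 72 and the larger one in both for 17. For 35 it was larger in wild-type and smaller in null embryos, and for 1 the reverse.

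**Figure D3:**
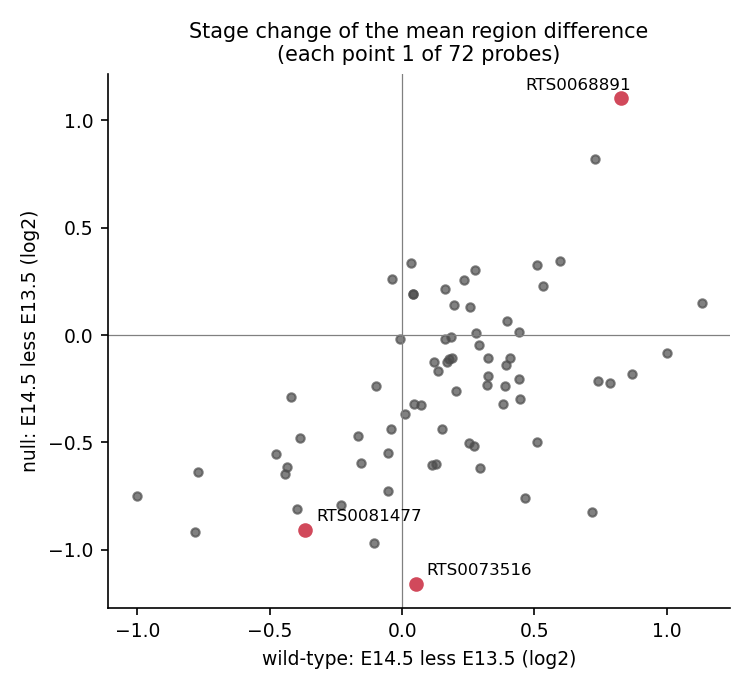
Change of the mean region difference from E13.5 to E14.5 in wild-type (x axis) and null embryos (y axis), both in log2; each point is 1 of the 72 probes, and the 3 red points are those named in the text for the stage comparison. Many points lie to the right of 0 and below 0, the 35 probes whose mean difference was larger at E14.5 in wild-type and smaller in null embryos.

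The levels behind these differences were also compared between stages in null embryos. In MDE, 9 of the 72 probes fell from E13.5 to E14.5 and none rose, against 220 of 17897 probes tested that fell (1.23%) and 187 of 2969 other bright probes. RTS0068983, whose E13.5 levels are given above, stood at 88.3, 100.4 and 82.4 CPM in null E14.5 MDE, a log2 change of -2.135 (SE 0.346, edgeR adjusted p = 6.15e-06). RTS0077397 stood at 158.3, 170.2 and 112.3 CPM and then 75.3, 56.5 and 53.3 CPM, a log2 change of -1.34 (SE 0.274, edgeR adjusted p = 0.00106). In both cases the stages did not overlap. The count of 9 ranged from 1 to 22 when libraries were left out in turn (1 without null E14.5 replicate 3, 22 without null E13.5 replicate 3), was 0 by both limma fits, 3 after thinning and 1 with signal contrast as a covariate.

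In null MDM, 25 of the 72 probes fell with stage and 2 rose. Over all 20175 probes 2651 fell (13.1%) and 506 rose (2.51%), and 1553 of the 2969 other bright probes fell. RTS0066004 stood at 79.8, 49.5 and 67.3 CPM in null E13.5 MDM and at 36.7, 37.9 and 33.5 CPM in null E14.5 MDM, a log2 change of -0.99 (SE 0.123, edgeR adjusted p = 6.4e-06). RTS0068983 fell here too, from 137.8, 113.9 and 103.7 CPM to 53.1, 55.0 and 51.4 CPM, a log2 change of -1.305 (SE 0.171, edgeR adjusted p = 8.92e-06). It was thus lower at E14.5 in both layers of the null duct. The 2 that rose were RTS0063811, by 0.38 (SE 0.112, edgeR adjusted p = 0.0176), and RTS0080102, by 0.36 (SE 0.112, edgeR adjusted p = 0.026). Background in MDM was 27.8 CPM ± 2.57 in null E13.5 and 32.9 CPM ± 1.17 in null E14.5 embryos. RTS0063811 started near it, at 31.0, 31.4 and 34.0 CPM, and RTS0066004 ended near it. In CPM every null E14.5 MDM library was above every null E13.5 one for 5600 of all 20175 probes (27.8%) and for 10 of the 72. With signal contrast as a covariate neither rise passed and the count that fell was 2, and it was 15 without null E14.5 replicate 3 or without null E13.5 replicate 2. Upper-quartile scaling, which raised the median of all probes from 0.018 to 0.137, gave 19 that fell and 5 that rose.

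Set beside the wild-type libraries, the E14.5 null epithelium was lower for nearly the whole list. The mean MDE level (log2 of CPM plus 20) was lower in null for 70 of the 72 probes at E14.5, with a median change of -0.66, and for 50 at E13.5, with a median of -0.11. Among the 2969 other bright probes, the mean MDE level in CPM was lower in null for 2444 at E14.5 and for 1619 at E13.5. On the CPM scale the mean MDM level was lower in null for 30 and higher for 42 of the 72 at E14.5, with a median of 0.04, while over all probes the median log2 ratio there was 0.156. That direction turned with TMM scaling, in which 23 of the 72 were above 0 in MDM and the median was -0.182. In 52 of the 72 probes every null E14.5 MDE library was below every wild-type one, as it was for 1392 of all probes (6.9%) and for 1065 of the 2969 other bright probes. The mean region difference was lower in null for 70 of the 72 at E14.5 (median -0.55) and for 59 at E13.5 (median -0.16), and it reached 0.7 at E14.5 for 19 probes in null and 66 in wild-type embryos. At E13.5 it reached 0.7 for 38 probes in null and 58 in wild-type. These are descriptions, since the same wild-type libraries chose the probes.

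**Figure D4:**
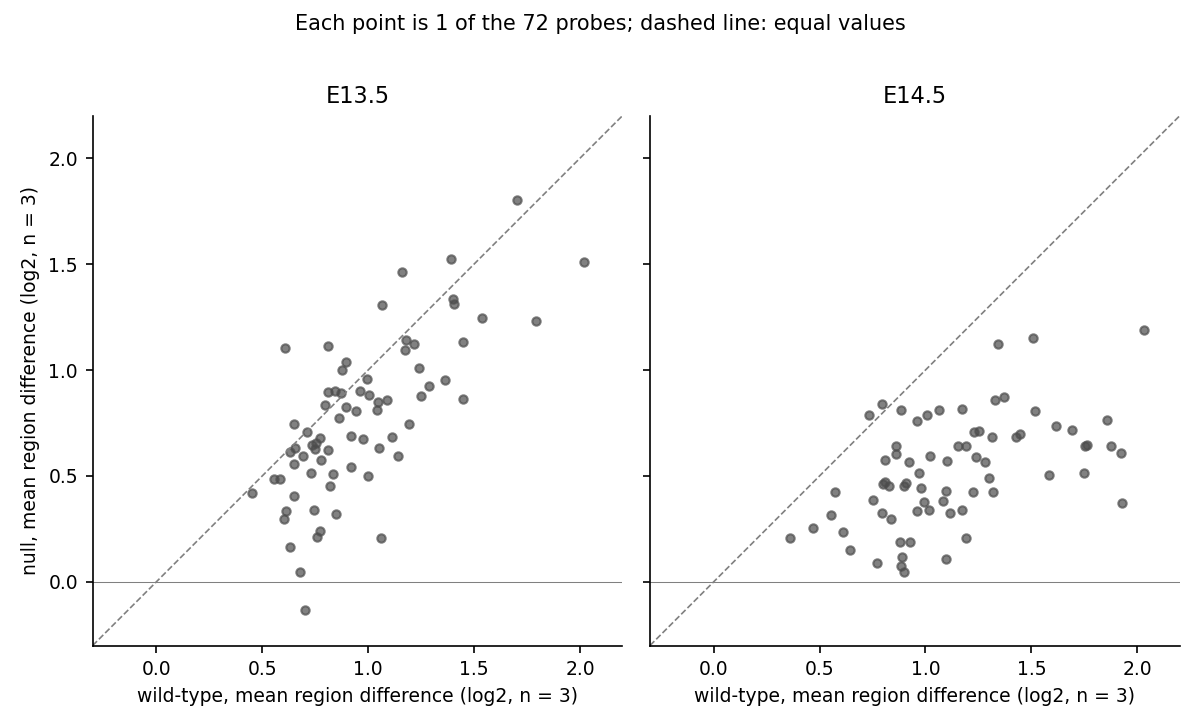
Mean region difference (log2, 3 embryos) of each of the 72 probes in wild-type (x axis) against null embryos (y axis), at E13.5 (left) and E14.5 (right), with a dashed line at equal values. At E14.5, 70 of 72 points lie below the line and at E13.5, 59.

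To test the genotypes without that overlap, the same rule was run on the wild-type embryos of a single stage and the chosen probes were tested at the other stage. The E13.5 wild-type embryos alone gave 83 probes, 58 of them in the list of 72. In wild-type E14.5 embryos 61 of these 83 were higher in MDE than in MDM and none was lower, against 356 of all 20175 probes (1.76%), with a median log2 difference of 1.17. In null E14.5 embryos, in the same fit, 57 of 83 were higher and none was lower, against 452 of all probes (2.24%), with a median of 0.56. The test of region by genotype found the difference smaller in null for 24 of the 83 and larger for none. It was smaller for 35 of all probes (0.173%) and for 7 of the 2969 other bright probes. Larger values in null were called for 19 of all probes (0.0942%), 13 of them among the mesenchyme-enriched probes taken up below. Here and below the 2969 are the probes outside the 72, so they can hold some of the 83. The median over the 83 was -0.55. The count of 24 was 13 without null E14.5 replicate 2 or without wild-type E14.5 replicate 1, and 14 with signal contrast as a covariate. It was 10 by DESeq2, 7 by limma on log2(CPM + 20), 2 after thinning to equal totals and 0 by limma on background-subtracted values.

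RTS0080102 and RTS0069637 had the lowest p in the test of region by genotype among the 58 probes on both lists. They, and the probes named for the other genotype tests, are also among the 72, so that wild-type values of both stages bore on their choice. RTS0080102 stood at 71.99, 93.2 and 88.8 CPM in null embryos against 245.1, 167.7 and 197.4 CPM in wild-type MDE at E14.5, and at 55.3, 65.2 and 61.3 CPM in null embryos against 39.6, 35.5 and 39.2 CPM in wild-type MDM. It was lower in the epithelium and higher in the mesenchyme of the null ducts, with no overlap in either. In MDM at E14.5, however, every null library was above every wild-type one in CPM for 10189 of all 20175 probes (50.5%) and for 22 of the 72, and background was 32.9 CPM ± 1.17 in null embryos against 25.9 CPM ± 0.485 in wild-type ones. The region difference changed by -1.87 from wild-type to null (log2, SE 0.194, edgeR adjusted p = 7.62e-17), and this call also held with signal contrast as a covariate. RTS0069637 stood at 78.5, 55.0 and 84.0 CPM in null embryos against 165.3, 224.7 and 168.6 CPM in wild-type MDE, with MDM at 38.3, 41.1 and 41.1 CPM in null embryos against 23.65, 39.3 and 40.8 CPM in wild-type. Here the epithelial ranges were apart and the mesenchymal ranges overlapped, and the fitted change was -1.75 (SE 0.199, edgeR adjusted p = 4.95e-14), a call lost after thinning to equal totals.

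In the epithelium itself, 53 of the 82 E13.5-chosen probes that could be tested were lower in null than in wild-type embryos at E14.5 and none was higher. Over all 15556 probes tested 863 were lower (5.55%), and of the 2969 other bright probes 769. The median log2 change was -0.83 over the 82 and -0.49 over the other bright probes. RTS0073440 stood at 88.3, 82.1 and 87.2 CPM in null embryos against 273.6, 261.6 and 296.1 CPM in wild-type MDE, a log2 change of -1.85 (SE 0.227, edgeR adjusted p = 2.41e-09). RTS0069326 stood at 71.99, 85.6 and 75.9 CPM in null embryos against 210.9, 194.5 and 271.4 CPM in wild-type, a log2 change of -1.64 (SE 0.226, edgeR adjusted p = 6.79e-08). Replicates of either genotype lay close together in both. With signal contrast as a covariate, which separates these groups, the count was 0 and the median -0.57, and after thinning to equal totals the count was 16 of 71 tested. Limma on background-subtracted values called 0 of 80.

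In the mesenchyme at E14.5, 36 of the 83 probes were lower and 9 higher in null embryos, with a median log2 change of -0.198. Over all probes 4329 (21.5%) were lower and 3094 (15.3%) higher, and 2245 of the 2969 other bright probes were lower. RTS0063554 stood at 72.01, 75.8 and 72.4 CPM in null embryos against 156.3, 192.9 and 232.8 CPM in wild-type MDM, a log2 change of -1.63 (SE 0.1415, edgeR adjusted p = 5.88e-12). RTS0070335 was also lower, with 50.2, 40.7 and 46.4 CPM in null embryos against 87.4, 74.1 and 78.1 CPM in wild-type MDM, a log2 change of -1.04 (SE 0.0988, edgeR adjusted p = 3.35e-11). RTS0080102 was higher in null MDM, by 0.47 (SE 0.0972, edgeR adjusted p = 0.000136), as was RTS0064221, by 0.34 (SE 0.099, edgeR adjusted p = 0.00561). Lower signal contrast moved with all of these genotype differences at E14.5, and with it as a covariate 14 of the 83 were lower and neither of the 2 rises, nor RTS0070335, passed. Upper-quartile scaling, which moved the median of all probes from 0.0254 to 0.133, gave 30 lower and 14 higher.

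**Figure D5:**
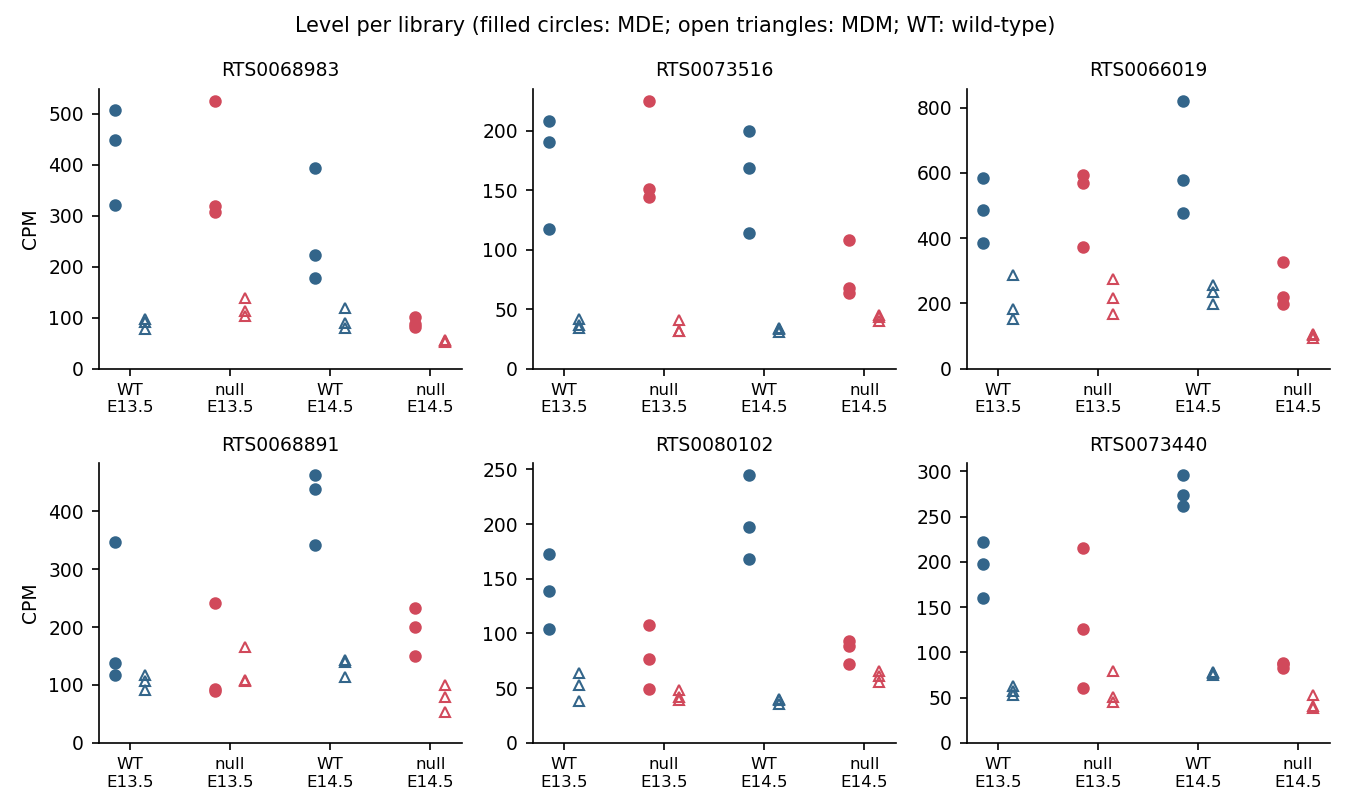
Level (CPM) of 6 of the 72 probes in every library, by genotype and stage; filled circles are MDE and open triangles MDM libraries, blue for wild-type (WT) and red for null. RTS0080102 and RTS0073440 show E14.5 null epithelium below 100 CPM against 167.7 CPM or more in wild-type, and RTS0068891 shows overlapping layers in null E13.5 embryos and separate layers in null E14.5 embryos.

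At E13.5 no probe of this kind passed a test between genotypes. The E14.5 wild-type embryos alone gave 129 probes, 66 of them in the list of 72, and in wild-type E13.5 embryos 57 of the 129 were higher in MDE and none was lower, against 137 of 20173 probes (0.679%). That count of 57 was 35 without wild-type E13.5 replicate 3, 37 without replicate 2, 33 without the embryo block, 26 after thinning, 22 with signal contrast as a covariate and 0 by limma on background-subtracted values. In null E13.5 embryos 50 of the 129 were higher and none lower, against 149 of all probes (0.739%). The test of region by genotype called 0 of the 129 by edgeR (0 of all probes, 0%), and 0 by DESeq2 or limma. At an unadjusted p under 0.05, 12 of the 129 were smaller and 1 larger, against 422 and 384 of all 20173 probes. The median over the 129 was -0.155. In MDE 0 of the 102 that could be tested differed by edgeR, against 1 of 3891 probes (0.0257%) that was lower. At an unadjusted p under 0.05, 6 of the 102 were lower and 1 higher, against 67 and 79 of the 3891. In MDM 0 of 129 differed, against 2 of 20175 probes (0.00991%) that were lower. Unadjusted, 2 of the 129 were lower and 4 higher, against 277 and 234 of all probes. DESeq2 and limma also called 0 in each. RTS0080102 came nearest in MDE, with 107.9, 76.9 and 49.3 CPM in null embryos against 138.5, 172.4 and 104.1 CPM in wild-type, a log2 change of -0.98 (SE 0.286) that did not pass (edgeR adjusted p = 0.405). The median of the 72 probes had 17 to 33 counts in these MDE libraries, so single probes had few counts behind them. That median was not computed over the 129.

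Between embryos of a group, the SD of the region difference had a median over the 72 probes of 0.352 in wild-type E13.5, 0.249 in wild-type E14.5, 0.373 in null E13.5 and 0.201 in null E14.5. Counting error alone gave 0.311, 0.245, 0.285 and 0.184. The spread was over 2 times the counting error for 20 probes in null E13.5, 13 in null E14.5, 10 in wild-type E13.5 and 3 in wild-type E14.5. RTS0075657, singled out after its values were seen, had the largest SD, 1.47, with differences of 1.43, -1.41 and 0.694 in the null E13.5 embryos and MDE levels of 122.3, 5.49 and 73.9 CPM. Across the 72 probes the differences of the null E13.5 embryos had a Pearson r of 0.000125 between replicates 1 and 2, 0.45 between 1 and 3 and 0.32 between 2 and 3. In null E14.5 the same values were 0.40, 0.45 and 0.46, in wild-type E13.5 0.55, 0.23 and -0.05, and in wild-type E14.5 0.55, 0.58 and 0.76. These are descriptions over probes of shared libraries.

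The group means of the region difference had a Pearson r of 0.72 over the 72 probes between wild-type and null embryos at E13.5 and 0.50 at E14.5, with Spearman rho of 0.70 and 0.50. Between the stages r was 0.32 in wild-type embryos, a value that the choice of probes on both stages bears on, and 0.15 in null embryos. In null embryos 10 probes had a mean difference of at least 0.7 at both stages, 28 at E13.5 only, 9 at E14.5 only and 25 at neither. In wild-type embryos the same counts were 52, 6, 14 and 0. That 0 was fixed by the rule, since a mean of 0.7 over both stages requires 0.7 in at least 1 of them. The wild-type counts are therefore no measure against which to set the 25 of the null embryos.

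The 5 probes above 0 in just 4 null embryos, listed after their values were seen, were RTS0068701, RTS0068846, RTS0068891, RTS0070027 and RTS0074710. RTS0068846 was below 0 in null E13.5 replicates 2 and 3, at -0.670 and -0.446, and above 0 in every null E14.5 embryo, at 0.999, 0.542 and 0.517. RTS0070027 ran the other way, from 2.05, -0.359 and 1.17 at E13.5 to 0.529, -0.377 and 0.466 at E14.5, with null replicate 2 of either stage below 0. RTS0068701 was below 0 only in null E14.5 replicates 1 and 3, at -0.114 and -0.0818. Each of these probes was above 0 in all wild-type embryos by the rule.

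The mirrored rule, run on the same wild-type embryos, gave 72 probes enriched in MDM, whose median region difference was -1.05 in wild-type and -0.449 in null embryos at E14.5, and -0.799 and -0.616 at E13.5. Among the epithelial probes the corresponding medians were 1.07 and 0.513, and 0.887 and 0.746. After background subtraction the epithelial medians were 2.28 in wild-type and 1.52 in null embryos at E14.5, and 2.08 and 1.70 at E13.5. The 72 MDM probes held 0.600% ± 0.073 of all counts in null and 0.965% ± 0.086 in wild-type E14.5 MDM. In the E14.5 test of region by genotype, 13 of them were called larger in null embryos and none smaller (median 0.789). Their region differences are negative, so a larger value was a smaller gap between the layers. Wild-type values of both stages bore on their choice. The part of signal contrast in these differences was not tested beyond the values given above.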

How the data were processed

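Each deposited file gives raw whole-number counts for each probe, written by version 2.3.5 of the GeoMx NGS pipeline, per the file headers. The submitters' processing notes name the build GRCm38.p6. A probe absent from a file was set to 0. Titles gave the groups and a number, which was taken as that of the embryo. Deviations from group means correlated at 0.0532 to 0.626 between same-numbered libraries of both regions within a genotype and stage. Between same-numbered libraries of the genotypes they correlated at -0.471 to 0.0998, and between stages at -0.172 to 0.291. The first range overlaps the others, and differently numbered libraries were not compared. These values therefore do not settle the pairing of regions, which rests on the titles. No libraries were identical (closest pair, chi-square per degree of freedom 1.02, p = 0.0131).

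The tests used edgeR 4.0.16 with R 4.3.3: TMM scaling, filterByExpr, robust quasi-likelihood fits, and Benjamini-Hochberg adjustment over all probes tested. The SE is the absolute log2 change over the square root of F. Region tests in null embryos used 12 null libraries, and region by genotype tests the 12 libraries of a stage, each with the embryo as a block; stage and genotype tests used the 6 libraries compared. P-values rest on the spread between these embryos as edgeR estimates it, with information shared over all probes. A single probe's own scatter over 3 embryos can therefore be wider than its SE implies. For RTS0081477 in null E13.5 embryos the SD of the region difference was 0.985 and the SE of the fit 0.229. Members and lists were chosen with earlier results of these data known. Named probes are, per comparison, at most 2 in each direction by lowest p, plus the 2 largest wild-type differences, the 2 brightest, and the 2 on each side of the threshold; others are said to be chosen after their values were seen.

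Alternatives were upper-quartile scaling, DESeq2 1.42.0, no low-count filter, signal contrast as a covariate, thinning to the lowest total, limma 3.58.1 on background-subtracted CPM (background, the 5044 dimmest probes; floor, 0.25 of it; probes averaging 1.5 times it or more), other blocks and libraries, other thresholds of the rule, and leaving out embryos or libraries. Limma with a trend on log2(CPM + 20) was added after seeing the data. The tests were tried on simulated counts. Other values were computed with Python 3.11.15.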

Additional observations from a re-analysis of the deposited data

Results flagged for a closer look

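Region differences that differed between genotypes by their interaction were set apart. At E14.5 the difference was smaller in null than in wild-type embryos for 24 of the 83 probes chosen on E13.5 wild-type embryos. Over all 20175 probes it was smaller for 35 (0.173%) and larger for 19 (0.0942%). RTS0080102 changed by -1.87 and RTS0069637 by -1.75 (log2, edgeR). The count of 24 was lower by DESeq2, after thinning and with signal contrast as a covariate. Limma on background-subtracted values called none of the 83.

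Within null embryos, the region difference was smaller at E14.5 than at E13.5 for 6 of the 72 probes and larger for 1. Over all 20175 probes it was smaller for 8 (0.0397%) and larger for 8 (0.0397%). None of the 72 was called smaller by DESeq2, by either limma fit or after thinning to equal totals. RTS0073516 changed by -1.60 and RTS0081477 by -1.60, and RTS0068891 by 1.30 (log2, edgeR). Single outlying values were not tested in groups of 3.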

How the results depend on the processing

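No named probe reversed its direction under any alternative, and 436 of the values for named probes kept their side of the threshold while 48 lost it. The 436 include the E13.5 genotype tests, whose named probes were not called and stayed so. All 48 losses were of called results. Counts of calls moved more. The counts as tested were, in null embryos, 50 (region E13.5), 57 (region E14.5), 6 (region difference smaller at E14.5), 9 (MDE lower at E14.5) and 25 (MDM lower at E14.5), and for probes chosen on the other stage 53 (MDE lower in null, E14.5), 36 (MDM lower in null, E14.5), 24 (region difference smaller in null, E14.5), 61 (wild-type region E14.5) and 57 (wild-type region E13.5). In that order, leaving out single embryos or libraries gave 31 to 47, 28 to 59, 1 to 6, 1 to 22, 15 to 29, 36 to 52, 33 to 39, 13 to 27, 54 to 62 and 35 to 60. The lowest wild-type region count at E13.5, 35, came without wild-type E13.5 replicate 3, and it was 37 without replicate 2.

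With signal contrast as a covariate the counts were 33 (null region E13.5), 0 (null region E14.5), 1 (null MDE by stage), 2 (null MDM by stage), 0 (genotype MDE E14.5), 14 (genotype MDM E14.5), 14 (region by genotype E14.5) and 22 (wild-type region E13.5). Thinned to the lowest total they were 26, 4 and 0 (null region E13.5, E14.5 and by stage), 3 (null MDE by stage), 16 (genotype MDE E14.5), 2 (region by genotype E14.5) and 26 (wild-type region E13.5). Limma on background-subtracted values gave 18, 0 and 0 (null region E13.5, E14.5 and by stage), 0 and 11 (null MDE and MDM by stage), 0 and 21 (genotype MDE and MDM, E14.5), 0 (region by genotype E14.5) and 0 (wild-type region E13.5). DESeq2 gave 29 (null region E14.5), 0 (null region by stage), 15 (null MDE by stage) and 10 (region by genotype E14.5), and limma on log2(CPM + 20) 8, 0, 0 and 7. Upper-quartile scaling gave 3 for the null region by stage. Without the embryo as a replicate block the counts were 31, 40 and 1 (null region E13.5, E14.5 and by stage), 17 (region by genotype E14.5) and 33 (wild-type region E13.5). With the replicate number as a block, which does not pair these samples, they were 11 and 26 (null MDE and MDM by stage) and 53 and 38 (genotype MDE and MDM, E14.5). Choosing probes with a pseudocount of 50 or a mean difference of at least 1.0 left 42 and 34 probes, of which 32 and 26 were called in null E13.5, and 31 of the 34 in null E14.5. The cause of these moves was not tested.

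MDE depth limits single probes, with 17 to 202.5 counts for the median of the 72 probes, and 3 embryos a group limit every test.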
